A study of Mus musculus with 2 samples.

Results

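The genes described here encode the dystrophin-glycoprotein complex, the assembly that anchors the muscle cell membrane to the cytoskeleton on its inner face and to the extracellular matrix on its outer face. They were taken as every spot named Dmd, Utrn, Dag1, Sgca, Sgcb, Sgcd, Sntb1 or Dtna that is not a control spot on either of 2 Agilent mouse expression arrays. These 8 genes, of 19505 with a gene symbol on the array, were represented by 23 probes on 32 spots. The arrays measured 2 tumours that grew under the skin after injection of RMS3, a mouse line which the labels call a PRMS cell line without writing the abbreviation out. Each tumour came from 1000000 cells in 200 µl of PBS placed under the skin of a male C57BL/6J host and was removed after 2 weeks, although the treatment text calls the tissue metastatic at that point. Both tumours form 1 group, with no control sample and no agent or altered genotype named, and a bulk tumour also holds cells of the host. The age of the mice was not given, and no label says whether the 2 tumours came from separate cultures of the line.

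In muscle, dystrophin binds actin filaments and, at the membrane, the transmembrane subunit of dystroglycan, whose extracellular subunit holds laminin and related matrix proteins through its sugar chains. The sarcoglycans form a transmembrane subcomplex that stabilises this link, and syntrophins and dystrobrevins dock on dystrophin as adaptors for signalling proteins. Utrophin is the close relative of dystrophin that takes its place in immature muscle and in many other cell types. Loss of dystrophin or of a sarcoglycan causes muscular dystrophy.

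Dmd is transcribed from several start sites, and the 2 of them in the RefSeq table of GRCm38.p6 lie 2099 kb apart on the same strand. They are shown here because Dmd had the largest difference between the tumours of the 6 members measured on both arrays, together with the more upstream of 2 starts of Dag1, which lay furthest the other way. Each line gives the 250 bases before the start site, 5′ to 3′. Capitals mark a CArG box, the binding motif of serum response factor, in the first window, and GC boxes (GGGCGG or its reverse complement CCGCCC) in the other windows.
Dmd, first start, chrX:82948620-82948869, plus strand: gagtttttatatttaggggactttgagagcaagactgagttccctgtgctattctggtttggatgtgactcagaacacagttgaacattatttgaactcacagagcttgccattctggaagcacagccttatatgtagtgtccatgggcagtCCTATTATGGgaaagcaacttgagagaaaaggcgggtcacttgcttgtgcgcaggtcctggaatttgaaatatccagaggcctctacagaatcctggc
Dmd, second start, chrX:85048045-85048294, plus strand: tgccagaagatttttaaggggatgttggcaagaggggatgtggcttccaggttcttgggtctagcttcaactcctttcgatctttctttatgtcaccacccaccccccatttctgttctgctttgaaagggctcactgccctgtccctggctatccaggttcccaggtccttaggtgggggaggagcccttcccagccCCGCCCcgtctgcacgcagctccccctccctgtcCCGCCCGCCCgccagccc
Dag1, upstream start, chr9:108263959-108264208, minus strand: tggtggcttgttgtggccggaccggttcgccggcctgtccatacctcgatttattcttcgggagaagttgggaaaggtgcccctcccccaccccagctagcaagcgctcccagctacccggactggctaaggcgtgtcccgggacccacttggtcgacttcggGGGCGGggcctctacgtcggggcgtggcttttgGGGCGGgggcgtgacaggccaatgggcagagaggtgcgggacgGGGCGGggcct
The first Dmd window held 1 CArG box, found in 1.47% of all 32851 windows of this length, 1 MEF2 site, found in 2.92% of them, and 2 E-boxes (CANNTG), found in 66.2%. It held no GC box, had a GC content of 45.2%, and its CArG box began 98 bases before the start. The second Dmd window held 3 GC boxes, a motif present in 32.7% of the windows, and neither an E-box nor a CArG box, at a GC content of 60.0%. The Dag1 window held 3 GC boxes and 1 E-box at a GC content of 67.6%. Both strands were searched for every motif. The scanner files hold neither the probes' sequences nor their positions, so which Dmd transcripts a probe reports, and from which start, is not known here.

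Each value is a level, the log2 of a spot's processed signal relative to the 75th percentile of its array, and each difference is tumour 2 minus tumour 1. With 1 array per tumour no test was possible, and 2 arrays limit the precision. Levels are given as mean ± SD over the 2 tumours and are not compared between genes. In bulk tissue, fewer cells of a type and less RNA per cell cannot be told apart. On array 1 the scanner software flagged 1128 spots as outliers, on array 2 it flagged 69, and around some flags of array 1 the signal was lower than on array 2, as 3 of the neighbourhoods described below show. Spots within 2 rows and columns of a flag of array 1, or of one of 11 spots with high local background on array 2, were therefore set aside, leaving 72.2% of the spots that are not controls. Of the remaining spots, 63.7% on array 1 and 65.8% on array 2 were well above background by the software's own call. Of the member probes 15 kept at least 1 spot, and 8 lay beside flags altogether.

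Of the 7 members with a spot away from flags, 6 were detected on both arrays, namely Dmd, Utrn, Dag1, Sgcb, Sgcd and Dtna. Detection means a probe whose spots were well above background on each array, and 69.4% of the 16055 genes with a symbol and a spot away from flags met it. None of the 6 lay 2-fold or more apart. Among the 11139 genes measured on both arrays, 1.97% were at least 2-fold lower and 2.6% at least 2-fold higher in tumour 2. At a limit of 1.5-fold, chosen after the values were seen, 1 member was lower (Dmd) and 1 was higher (Dag1), against 7.7% and 9.06% of all genes. The median difference of the 6 members was -0.06, against 0.02 over all genes.

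**Figure D1:**
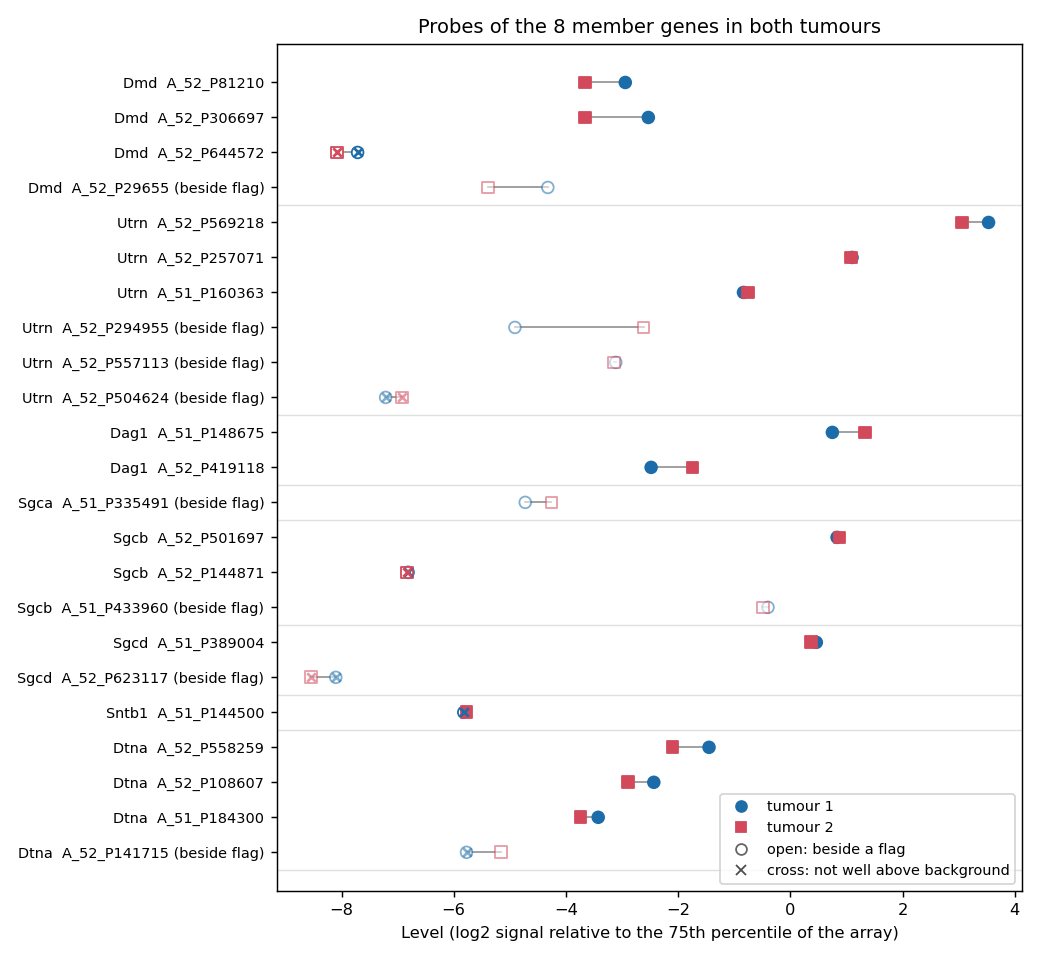
Levels of the 23 member probes (log2 signal relative to the 75th percentile of the array) in tumour 1 (blue circles) and tumour 2 (red squares), 1 line per probe and averaged over spots where a probe has several. Probes beside flags are drawn open, and so are values not well above background, which also carry a cross. The 2 measured Dmd probes and the 3 measured Dtna probes were lower in tumour 2 and both Dag1 probes were higher there.

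Dmd, which encodes dystrophin, the actin-binding rod of the complex, lay at -2.74 in tumour 1 and -3.66 in tumour 2 (-3.20 ± 0.65, n = 2). Its difference of -0.92 corresponds to a signal 1.90-fold higher in tumour 1. Of all measured genes 2.52% had a difference at or below that of Dmd. The direction held for each Dmd probe above background, but it turned to 1.68 under a normexp background correction whose fit on array 2 included the 11 spots of high background, and stayed at -0.56 when these spots were left out of the fit. With all unflagged spots the difference was -1.27, past 2-fold, with no scaling it was -1.06 and with the brightest probe alone -1.13.

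A probe for Dmd, A_52_P81210, is printed 10 times across the array, which gives the technical error of its value. On array 1 its 9 spots away from flags had signals from 94.9 to 146 with a median of 135. On array 2 the same positions read from 62.0 to 84.5 with a median of 70.1. All 9 spots were lower in tumour 2, by a mean of -0.72 with an SD of 0.21 over spots. The levels of the 2 arrays did not overlap, although the dimmest spot of array 1, at -3.39, came close to the brightest of array 2, at -3.42. This SD covers repeat spots of 1 RNA sample per tumour and says nothing of the spread among tumours.

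Of the 245 probes printed 10 times, 171 were detected on both arrays with at least 5 spots away from flags. In 88 of these (51.5%) the spots of the arrays did not overlap, a property the Dmd probe shares with them. The Dmd probe was among the 7 lowest of the 171 differences. Over all 171 probes the pooled SD of the difference between repeat spots was 0.23.

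The other measured Dmd probe, A_52_P306697, is on 1 spot and read 172 in tumour 1 and 71.2 in tumour 2, which is -1.13 after scaling. It was the only one of the 12 member probes detected on both arrays whose tumours lay over 2-fold apart. The probe A_52_P29655 lay beside a flag and read 49.7 and 21.5, a difference of -1.07 where the surrounding spots had a median of -0.03. The probe A_52_P644572 read 4.74 and 3.33, neither well above background. The 2 measured probes are listed under a RefSeq mRNA of Dmd, whereas the other two are listed under cDNA clones.

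**Figure D2:**
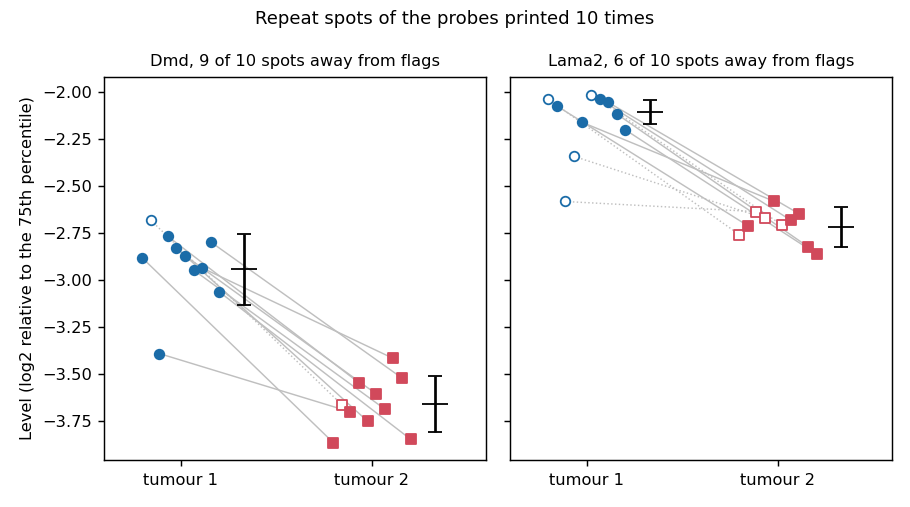
Levels (log2 relative to the 75th percentile of the array) of the repeat spots of the Dmd probe and the Lama2 probe printed 10 times, joined by position on the array. Filled symbols are spots away from flags, open symbols spots beside flags, and black bars give mean ± SD over the filled spots. The filled spots of Dmd and of Lama2 were all lower in tumour 2, by means of -0.72 and -0.61.

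Utrn, which encodes utrophin, had a difference of -0.01 (level 1.09 ± 0.01, n = 2), well inside the technical SD of 0.23. Its probes did not give the same value. A_52_P257071 read 2130 in tumour 1 and 1912 in tumour 2, or -0.01 after scaling, and A_51_P160363 read 557 and 535, or 0.08. A_52_P569218, whose accession is that of a cDNA clone, read 11500 and 7505, a difference of -0.47. The gene's sign thus depends on the probe and on the processing: it was 0.08 in the lower rows of the array alone, below most flags, and -0.47 with the brightest probe.

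The other 3 Utrn probes lay beside flags and are not counted. A_52_P294955 read 33.1 in tumour 1 and 147 in tumour 2, which is 2.29 where the surrounding spots had a median of -0.01. A_52_P557113 read 115 and 102, a difference of -0.03 in a neighbourhood whose median difference was 1.89. A_52_P504624 was below the detection limit on both arrays.

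Dag1 encodes both dystroglycan subunits from 1 precursor and is the matrix receptor at the core of the complex. Its probe A_51_P148675 read 1670 in tumour 1 and 2257 in tumour 2. Its probe A_52_P419118 read 178 and 269. Both were thus higher in tumour 2, by 0.58 and 0.74, and the gene lay at -0.87 in tumour 1 and -0.21 in tumour 2 (-0.54 ± 0.46, n = 2). The difference of 0.66 is 1.58-fold and more than the technical SD of 0.23. Of all measured genes 7.20% had a difference at or above it, and it kept its sign under each of the 10 alternatives that gave a value, from 0.46 to 0.89.

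The 3 sarcoglycans among the members are single-pass membrane proteins of the stabilising subcomplex. Sgcb (β-sarcoglycan) read 1770 in tumour 1 and 1655 in tumour 2 with its probe A_52_P501697, and differed by 0.04 once the arrays were scaled (level 0.85 ± 0.03, n = 2). That sign turned to -0.22 with all unflagged spots, to -0.10 with no scaling and to -0.30 under normexp fitted with all spots. Sgcd (δ-sarcoglycan) read 1370 and 1158 with A_51_P389004, a difference of -0.10 (0.41 ± 0.07, n = 2) that was negative under all 11 alternatives. For both genes the tumours differed by less than the technical SD.

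The remaining sarcoglycan probes gave no usable difference. A_52_P144871 for Sgcb, with signals of 8.84 and 7.91, was below the detection limit on both arrays. A_51_P433960 for Sgcb lay beside a flag and read 754 and 641 in a neighbourhood whose median difference was 1.32. A_52_P623117 for Sgcd lay beside a flag, where the neighbourhood had a median of 1.89, and was not well above background on array 1 or array 2. Sgca (α-sarcoglycan, the form restricted to striated muscle) has 1 probe on the array, also beside a flag, which read 37.6 in tumour 1 and 47.1 in tumour 2 and was well above background on both. Around the Sgca spot the median difference was 0.11, and with all unflagged spots in use the gene's difference was 0.27.

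The cytoplasmic adaptors were Sntb1 (β1-syntrophin), which carries signalling proteins through its PDZ domain, and Dtna (α-dystrobrevin), which binds dystrophin and syntrophins. Sntb1 read 17.6 in tumour 1 and 16.5 in tumour 2. Only the second was called well above background, and it exceeded the lowest such level of array 1 by 0.0053, so no fold is given. The array 1 value lay just below that level, so the call of Sntb1 on 1 array alone does not show that the tumours differ.

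Dtna was lower in tumour 2 with each of its 3 measured probes. A_52_P558259 read 364 in tumour 1 and 210 in tumour 2, which is -0.65 after scaling. A_52_P108607 read 184 and 121, a difference of -0.47. A_51_P184300 read 92.6 and 67.5, a difference of -0.32. The gene lay at -2.43 and -2.90 (-2.67 ± 0.33, n = 2), a difference of -0.47, or 1.38-fold, which turned to 1.70 under the normexp fit with all spots and stayed between -0.66 and -0.27 under the other 10 alternatives. Of all measured genes 11.5% lay at or below it. Its remaining probe, A_52_P141715, lay beside a flag and was above background on array 2 alone, with signals of 18.2 and 25.2.

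**Figure D3:**
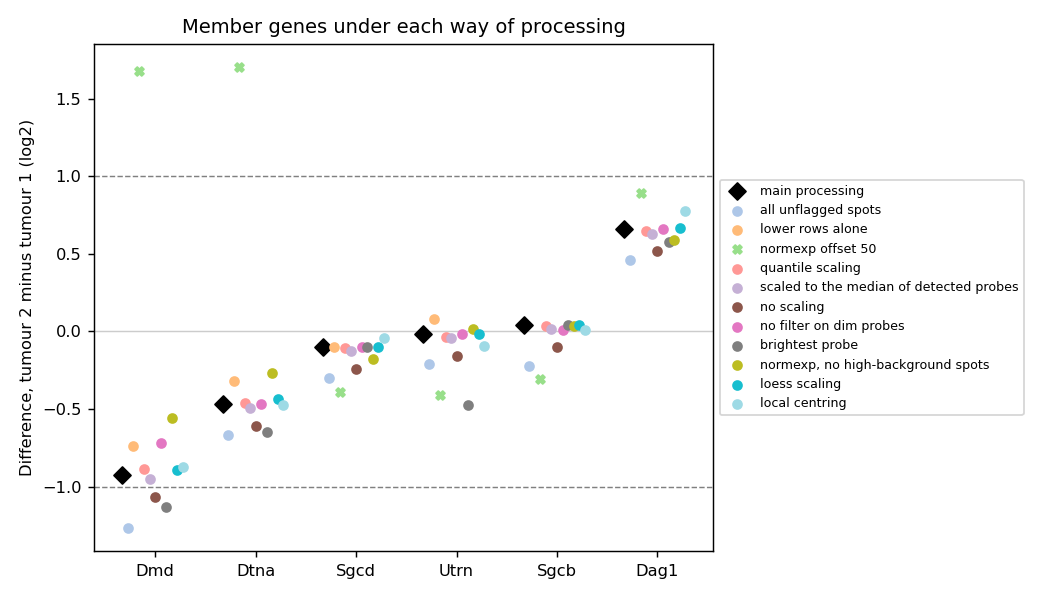
Difference of the 6 measured member genes (tumour 2 minus tumour 1, log2) under the main processing (black diamonds) and 11 alternatives, with dashed lines at 2-fold. Apart from normexp fitted with all spots (crosses), Dmd stayed between -1.27 and -0.56 and Dag1 between 0.46 and 0.77, while Utrn and Sgcb had values on both sides of 0.

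Position on the array was read for every member probe away from flags from the other spots within 5 rows and columns. The median difference of these neighbourhoods ranged from -0.18 to 0.08 over the 15 probes. After the neighbourhood was subtracted, Dmd lay at -0.87, Dag1 at 0.77 and Dtna at -0.47.

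Of the 52 genes in 5 lists of companions of the complex, 50 were on the array under their names, 42 had a spot away from flags and 35 were detected on both arrays. None of the 35 lay 2-fold or more apart, 19 were higher and 16 lower in tumour 2, and their median difference was 0.0076. Among the other sarcoglycans, Sgce (ε-sarcoglycan, found outside muscle as well) had a difference of -0.35, with both its probes negative. Sgcz was not detected on either array, and sarcospan (Sspn) was covered only beside flags. Of the 5 other syntrophins and dystrobrevins, Sntb2 (β2-syntrophin) lay at 0.08 and turned negative with all unflagged spots, while the γ-syntrophins Sntg1 and Sntg2 were not detected on either array. A gene of that list is named after its value was seen, Dtnb (β-dystrobrevin) at 0.44, with both its measured probes positive where those of Dtna were negative.

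Of the 14 genes for dystrophin partners and membrane repair 6 were measured, with differences from -0.10 to 0.57. Cav3, the caveolin of muscle, was the highest of them at 0.57, and Myof, a ferlin of membrane fusion, lay at 0.29 with its 3 probes between 0.15 and 0.33, although it turned to -0.68 under normexp fitted with all spots. Plec, a linker of intermediate filaments, had a median of 0.29 over 4 probes that ran from -1.35 to 0.95, so its probes went opposite ways. Nos1, the nitric oxide synthase that docks on syntrophin, was not measured on both arrays. Its probe printed 10 times was well above background at 1 of 10 spots on array 1, at 38.7 where the other 5 spots away from flags read from 3.64 to 4.61, and at 0 of 10 on array 2. A second Nos1 probe, named for a cDNA clone, was well above background on array 2 alone and at least 4.21-fold higher there, so the probes of Nos1 disagree. Capn3 was above background on array 2 alone, at least 1.22-fold higher, and Ank2 on neither. Dysf, Kcnj12, Anxa1 and Drp2 were covered only beside flags, and Trim72 was not found by name.

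Among 11 matrix ligands of dystroglycan, 8 were measured, 6 lower and 2 higher in tumour 2. Lama2, the laminin chain of the muscle basement membrane, had a difference of -0.57 (-2.90 ± 0.41, n = 2), at or below which 7.96% of all genes lay. Its probe printed 10 times read from 216 to 242 at 6 spots away from flags in tumour 1. The same 6 spots read from 124 to 151 in tumour 2. All 6 were lower there, the spots did not overlap, and the mean difference was -0.61 with an SD of 0.10 over spots. The second measured Lama2 probe gave -0.54, and the gene turned positive only under normexp fitted with all spots (1.67).

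Other laminin α chains gave smaller or opposite values. Lama5 was higher in tumour 2, by 0.71 on its 1 probe. Lama4, a chain of vessel basement membranes, had a median of -0.15 with 4 probes from -0.94 to 0.19. Lama1 was above background on array 2 alone, with 1 of its probes at least 1.69-fold higher there and the other not well above background on either. Nid1 was covered only beside flags and Hspg2 was not found by name.

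The enzymes that build the laminin-binding sugar of dystroglycan were the most completely measured of the companion lists. All 16 with a spot away from flags, of 18, were detected on both arrays, 9 higher and 7 lower in tumour 2, with a median of 0.02, which was below 0 under 6 of 11 alternatives, and a range from -0.54 to 0.60. The O-mannosyltransferase Pomt2 had a difference of 0.36 from probes at -0.02 and 0.74, and lay at -0.02 in the lower rows alone and with the brightest probe. Pomgnt1 and Pomgnt2, which extend the O-mannose, lay at 0.40 and 0.60. Pomt1 was covered only beside flags.

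**Figure D4:**
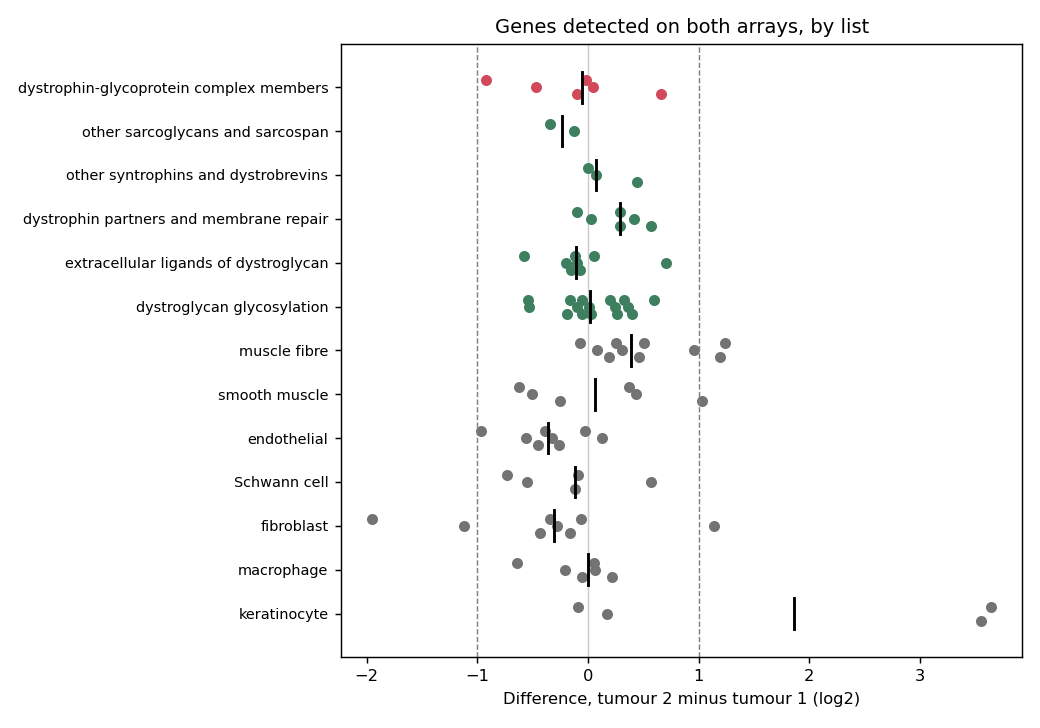
Differences (tumour 2 minus tumour 1, log2) of genes detected on both arrays, 1 point per gene, for the complex (red), its companion lists (green) and cell type markers (grey). Black bars are list medians and dashed lines mark 2-fold. No complex or companion gene passed 2-fold, while the muscle fibre, smooth muscle, fibroblast and keratinocyte lists each held genes that did.

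Markers of the cells that could carry the complex also differed between the tumours. Of 12 muscle fibre markers 10 were detected, 9 of them higher in tumour 2, with a median of 0.39 and a range from -0.07 to 1.24. The list's median was above 0 under all 11 alternatives, from 0.25 to 0.70. Ckm lay at 0.50 and Acta1 was covered only beside flags. Myh1 had 2 probes away from flags. One of them was above background on array 2 alone, at least 1.02-fold higher there, and the other on neither array. With all unflagged spots Myh1 was detected on both arrays. The summed level of the list (linear signal over the 75th percentile, over detected probes) was 15.9 in tumour 1 and 23.8 in tumour 2. Most of this rise came from the 2 Myh4 probes, at 1.17 and 1.21. The highest difference, Des at 1.24, came from 8 spots with an SD of 0.64 on array 1 and 0.08 on array 2. The Des spots of the 2 arrays did not overlap. The endothelial markers ran the other way, with 7 of 8 lower in tumour 2, from -0.97 to 0.13. Their summed levels were 4.73 and 3.04, and most of this fall came from the Emcn probe, at -0.97. Yet 7 of 8 endothelial markers were higher under normexp fitted with all spots. The fibroblast markers had 7 of 8 lower, from -1.95 to 1.13, with sums of 451 and 349, and a median below 0 under all 11 alternatives. Under normexp fitted with all spots, however, 4 fibroblast markers were higher and 4 lower. The Schwann cell markers, whose cells carry Dag1, utrophin and a short form of dystrophin, had 4 of 5 lower from -0.74 to 0.57, sums of 3.36 and 4.87, and Mbp not well above background on either away from flags, though detected on both with all unflagged spots. Egr2, at 1.68 and 2.25, made up most of both sums. Under normexp fitted with all spots 4 of 5 were higher, and with all unflagged spots 4 of 8 were higher and 4 lower. Of the smooth muscle markers 6 of 8 were detected, 3 higher and 3 lower in tumour 2, from -0.63 to 1.03 with sums of 13.3 and 20.8. A single Acta2 probe, at 3.18 and 3.91, made up most of both sums. Acta2 itself lay at -0.51, with 3 measured probes from -0.87 to 0.73. The defining myosin Myh11 was not detected on either array.

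Macrophage markers showed 3 higher and 3 lower of 6 measured, from -0.64 to 0.22, with sums of 4.92 and 4.58. Csf1r was not well above background at its 1 probe away from flags, and detected on both with all unflagged spots. Among the keratinocyte markers, 4 of 8 were detected, from -0.09 to 3.64 with sums of 11.58 and 13.95, most of them from Sfn at 3.52 and 3.69. The basal keratins Krt5 and Krt14 were higher in tumour 2 by 3.55 and 3.64, and Trp63 was not detected on either array. Krt1 lay at -0.09, and another of its probes was above background on array 1 alone, at least 2.96-fold higher there. The list had 3 genes higher and 1 lower in tumour 2, with a median of 1.86. With all unflagged spots it had 2 higher and 3 lower, with a median of -0.02. The part of any of these cell types in the differences of Dmd, Dag1, Dtna and Lama2 was not tested.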

How the data were processed

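The 2 single-colour (Cy3) Agilent mouse arrays held 1 tumour each. With 1 array per tumour, slide, scan and array position cannot be told apart from the tumour, so none could be examined as a batch. Per the labels' protocols, RNA was extracted with Trizol and 1.0 µg was labelled. The deposited intensity values are output of Agilent Feature Extraction. Per the file headers its version was 9.1.3.1, whereas version 8 stands in the submitters' processing notes. The deposited value table equalled the processed signal intensity at 100% of spots, linear and uncentred (column medians 63.3 and 67.5). The values of tumour 1 had 3 significant digits. Gene names came from the file of tumour 2, since 47 spots were named differently, and for companion genes through RefSeq accessions. The genome build behind the probes was not given in the sources used here.

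The deposited intensity was converted to log2 minus the 75th percentile of the array (995 and 902) over unflagged spots away from flags. Repeat spots were averaged. Detection of a probe required 50% or more of its spots to be well above background, and a gene took the median of its detected, unsaturated probes. A probe detected on 1 array received a lower bound against the higher of the other array's own value and its lowest well-above-background level (-5.78 and -6.19). There is 1 group, so no test was run. The members and lists were chosen with earlier results of these data known. All 8 members were named with every probe, and of each companion list the first 4 genes, any gene at least 2-fold apart, not detected, or with probes 2-fold apart. Cell types were given by counts, range and some of their first 4 genes. Dtnb, Des, Myh4, Krt5, Krt14 and other markers, some of them at background, were named within these or after their values were seen. Some companion genes counted in the lists are not reported here by name. Promoter sequences and chromosomal positions are those of RefSeq for GRCm38.p6. Member windows on 1 chromosome were left out beforehand, and windows of 6 members remained. The steps were tested on simulated data, with both arrays made from the signals and detection calls of array 2. These did not hold the lower signal around flags of array 1, so the setting aside of spots was not tested. Computation used Python 3.11.15, and limma 3.58.1 in R 4.3.3.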

Additional observations from a re-analysis of the deposited data

How the results depend on the processing

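The detection counts held within 1.5 times except that 19 companion genes remained in the lower rows alone (rows above 338), where fewer genes have spots. The members detected were 6, and 7 with all unflagged spots, 4 in the lower rows, and 6 to 7 with either tumour left out (35 to 38 for the companions). The members at least 2-fold higher in tumour 1 rose from 0 to 1 (Dmd) with all unflagged spots, no scaling or the brightest probe. Normexp with offset 50 put 2 members (Dmd and Dtna) at least 2-fold higher in tumour 2, moved the members' median to 0.29, and put 8 companion genes higher and 2 lower past 2-fold. Fitted without the 11 spots of high background on array 2, it gave 0 of each and a median of -0.08. The companion genes at least 2-fold higher in tumour 2 numbered 2 with all unflagged spots (Kcnj12 at 4.48 and Pomt1 at 4.28, both covered only beside flags) and 1 (Nos1) with no filter on dim probes. The cause of the other moves was not tested. The median over all genes, 0.02, was -0.15 with all unflagged spots, -0.13 with no scaling and 0.52 under normexp with all spots. Against it Dmd lay at -1.12, -0.94 and 1.15. Of 503 other values, 432 moved by less than the technical SD or the spread of the tumours and 71 by more. The normexp refit, loess scaling (span 0.3) and local centring were added after seeing the data. No paired analysis was possible because there is 1 group. Signal over background limits Sntb1 on array 1.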
